A study of Mus musculus with 8 samples.

Results

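Messenger RNA levels of 10 listed members of the Bcl2 family of apoptosis regulators were examined in mouse embryonic stem (ES) cells of 4 genotypes, on 8 Affymetrix arrays, 2 per genotype. A probe set was taken as a member when the array's gene table gave it 1 symbol and that symbol was Bcl2, Bcl2l1, Mcl1, Bak1, Bax, Bid, Bad, Bcl2l11, Bbc3 or Pmaip1. This rule found 29 of the 45101 probe sets, for 9 of the 10 genes and of the 18194 genes the table covers, and Bax was not analysed here. Of these 29 probe sets, 15 were measured, for 5 genes: Bcl2l11, Pmaip1, Mcl1, Bid and Bad. The other 14 were flat, which means that their 8 log2 values spanned less than 0.01.

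The double-KO cells (Jmjd1adelta/delta; Jmjd1bdelta/delta) came from a Jmjd1a-deficient ES cell line in which a conditional Jmjd1b allele was deleted by the drug-inducible recombinase MerCreMer. The Jmjd1a-KO cells (Jmjd1adelta/delta; Jmjd1b+/+) were a Jmjd1a-deficient line, the Jmjd1b-KO cells (Jmjd1a+/+; Jmjd1bdelta/delta) were labelled as derived from Jmjd1b-deficient mice, and the WT cells (Jmjd1a+/+; Jmjd1b+/+) as derived from WT mice. The design text describes targeted Jmjd1b-deficient lines, and which line each array came from was not given in the sources used here. All 8 samples share a medium with leukemia-inhibiting factor and a treatment text that names 800 nM OHT, the drug that switches the recombinase on. None was labelled as an untreated or an OHT control. Every difference between genotypes here is therefore also a difference between lines. Jmjd1a and Jmjd1b, now named Kdm3a and Kdm3b, encode enzymes that remove methyl groups from lysine 9 of histone H3, a mark of silent chromatin. The labels call the arrays of a group biological replicates without naming separate cultures, so the p-values measure the spread between these samples, which may be technical.

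The Bcl2 family decides whether the outer mitochondrial membrane is opened, the step that releases cytochrome c and starts the caspase cascade. Bcl2, Bcl2l1 (Bcl-xL) and Mcl1 keep the membrane closed, and Bax and Bak1 are the effectors that open it. The BH3-only proteins Bcl2l11 (Bim), Bid, Bad, Bbc3 (Puma) and Pmaip1 (Noxa) report stress by binding the guardians or the effectors, and Noxa binds chiefly Mcl1. ES cells are known to be primed for apoptosis, and Mcl1 is a short-lived protein that early embryos need.

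The arrays gave no measured difference for 4 of the 9 genes. All 5 Bcl2 probe sets were flat, at log2 levels of 5.93 to 6.95, as were all 4 for Bcl2l1, at 6.04 to 8.52. Both Bak1 probe sets (6.65 and 7.81) and the single Bbc3 probe set (8.06) were flat too. These 4 genes were not measured, so the table says nothing of how the guardians Bcl2 and Bcl2l1, the effector Bak1 or the BH3-only gene Bbc3 behaved in these cells. Among genes with measured probe sets, 1 of 3 for Bid (at 6.82) and 1 of 5 for Bcl2l11 (1456006_at, at 7.37) were flat. Of the flat member probe sets, that of Bcl2l11 had the largest span, 0.00398, and of the measured ones Bad 1416582_a_at had the smallest, 0.132. Flat probe sets made up 48.3% of the members, against 74.5% of the whole table.

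Bcl2l11, the member with most probe sets that differed, lies on mouse chromosome 2, and RefSeq lists 2 transcription starts for it. Its promoter windows are printed because it is a textbook target of FOXO transcription factors and because several of its probe sets moved together in the results that follow. The windows run 250 bases before to 50 bases after each start, 5′ to 3′ on the plus strand of GRCm38.p6 (RefSeq), at chr2:128125788-128126087 and chr2:128127325-128127624. Capitals mark the FOXO motif GTAAACA, searched on both strands.
Bcl2l11 window 1: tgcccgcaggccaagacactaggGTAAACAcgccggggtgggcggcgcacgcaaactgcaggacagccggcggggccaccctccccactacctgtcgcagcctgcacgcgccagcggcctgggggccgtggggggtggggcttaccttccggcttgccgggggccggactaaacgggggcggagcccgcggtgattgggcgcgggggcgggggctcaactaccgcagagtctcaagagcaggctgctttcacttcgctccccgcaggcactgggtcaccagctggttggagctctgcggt
Bcl2l11 window 2: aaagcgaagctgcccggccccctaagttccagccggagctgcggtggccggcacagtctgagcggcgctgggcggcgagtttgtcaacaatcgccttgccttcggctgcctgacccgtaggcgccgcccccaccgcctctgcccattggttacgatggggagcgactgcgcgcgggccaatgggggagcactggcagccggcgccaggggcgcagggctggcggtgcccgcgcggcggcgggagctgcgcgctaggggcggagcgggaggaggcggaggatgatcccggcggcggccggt
The motif stood once in the first window, at base 24 of it, and not in the second. It was present in 3.65% of the 32851 windows of all genes in the table. Among the 15 windows of the 9 members that have one, the only other match was in the second window of Bbc3, which the arrays did not measure. The motif TGATGNAA, bound by C/EBP-ATF pairs such as those of the Atf4 stress pathway, stood in 3.97% of all windows and in none of the members' windows. Both Bcl2l11 windows were rich in CG pairs, with 27 and 38, against a median of 7 over all windows. This was not particular to Bcl2l11 among the members. The Bcl2 window held 44, that of Mcl1 33 and the first of Bad 27, while the first of Bcl2l1 held 1. A match of letters is a description of these windows, and no binding was measured.

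The deleted genes matched the labels on all 8 arrays. Kdm3a stood at log2 levels of 4.60 and 4.77 in double-KO cells and 5.08 and 4.87 in Jmjd1a-KO cells, against 12.80 and 12.83 in Jmjd1b-KO cells and 12.83 and 12.73 in WT cells. Kdm3b (1428320_at) stood at 7.06 and 7.66 in double-KO cells and 7.07 and 7.10 in Jmjd1b-KO cells, against 9.95 and 9.81 in Jmjd1a-KO cells and 9.91 and 9.96 in WT cells. The second double-KO array thus had more Kdm3b signal than the other arrays that lack the gene. Replicates lay farther apart in some groups than in others: the SD of their difference over all tested probe sets was 0.301 in double-KO cells and 0.346 in Jmjd1a-KO cells, against 0.119 in Jmjd1b-KO cells and 0.16 in WT cells. Of the 10 ES cell markers 9 were measured, and 4 were higher and 0 lower in double-KO than in WT cells. Of all tested probe sets, 27% were higher and 19.6% lower in that comparison, and the median change of the 9 markers was -0.10. The double-KO arrays differed between themselves in such markers, with Esrrb at 7.68 on the first and 9.58 on the second. Of the 14 fibroblast markers 11 were measured (Dcn, Lum and Pdgfra were flat), and their summed log2 levels were 92.33 to 94.31 in double-KO, 92.48 to 94.26 in Jmjd1a-KO and 81.91 to 83.6 in Jmjd1b-KO cells, against 103.4 to 104.6 in WT cells. Sums hide opposite changes: in double-KO against Jmjd1a-KO cells 3 of the 11 were higher and 4 lower. In that comparison 17% of all tested probe sets were higher and 11.9% lower. Against WT cells, 6 of the 11 were lower, 0 higher and 5 not called in double-KO cells. Of the 10 extraembryonic endoderm markers 6 were measured (Foxa2, Gata4, Pdgfra and Sox7 were flat), with sums of 49.51 to 52.26 in double-KO, 47.83 to 48.8 in Jmjd1a-KO and 44.02 to 44.12 in Jmjd1b-KO cells, against 46.82 to 47.69 in WT cells. The part of these markers in the results on the members was not tested.

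**Figure D1:**
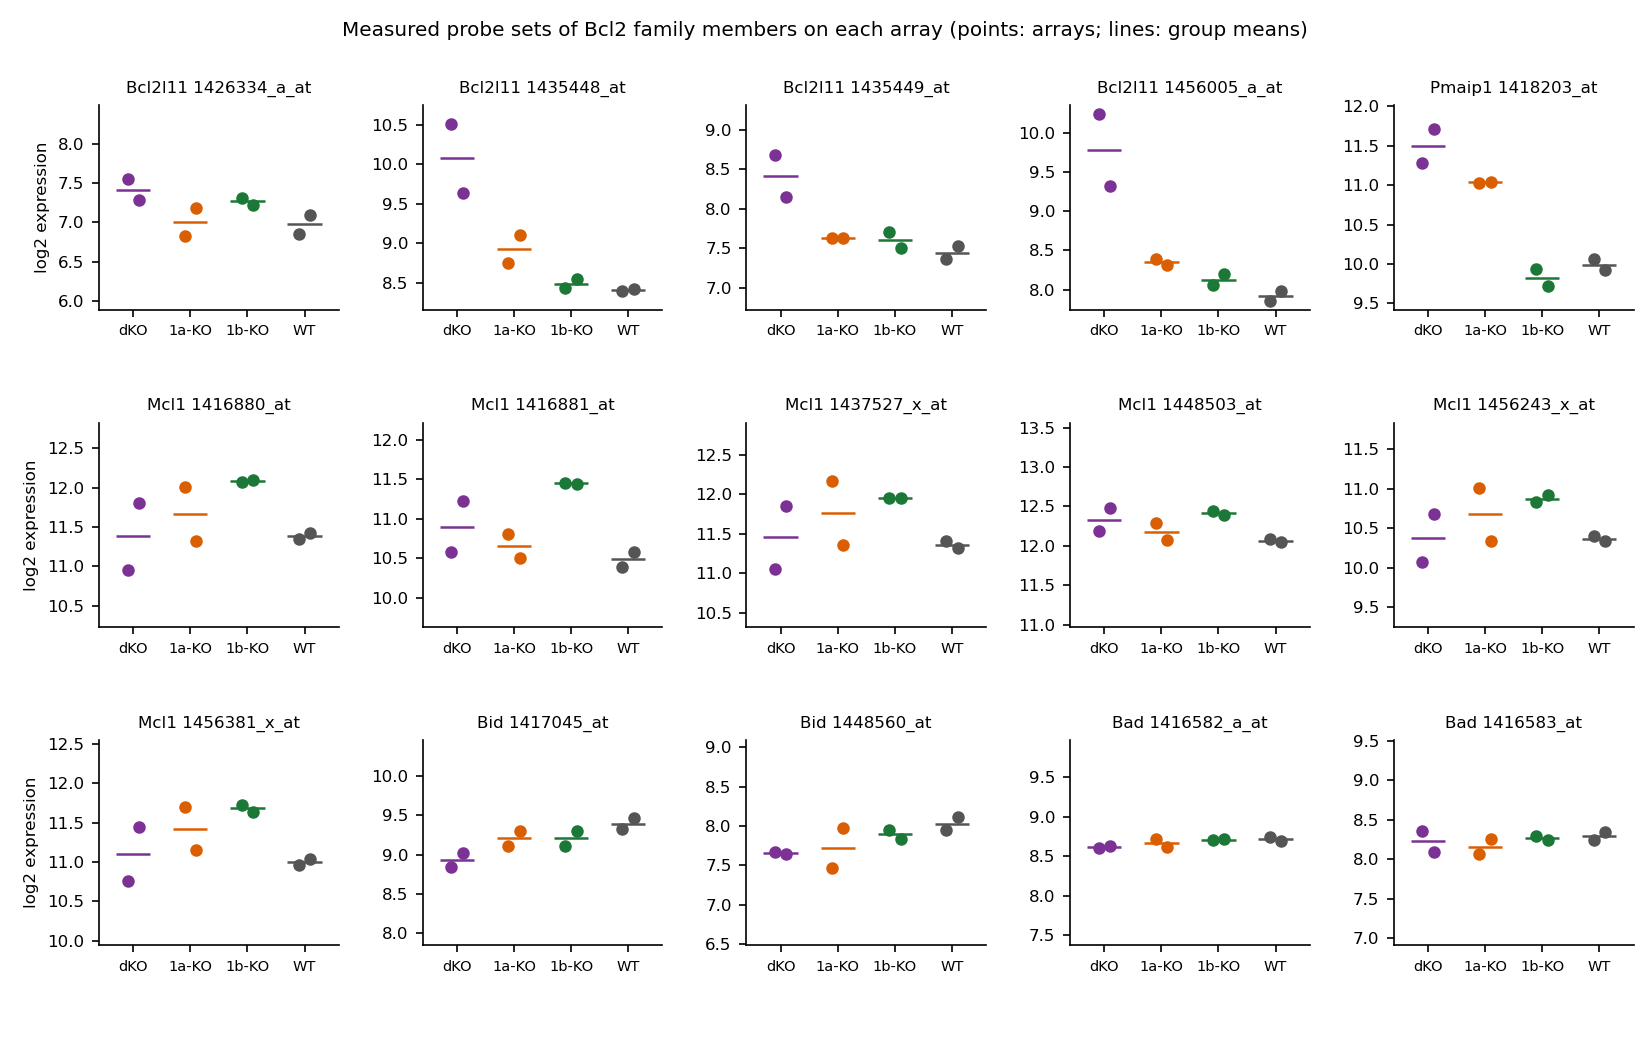
Log2 level (vertical axis) of each measured member probe set in double-KO (dKO), Jmjd1a-KO (1a-KO), Jmjd1b-KO (1b-KO) and WT cells, 1 panel per probe set with its own range. Points are the 2 arrays of a group and lines the group means; Bcl2l11 probe sets stand highest in double-KO cells, and Pmaip1 stands at 11.03 or more on all 4 arrays that lack Jmjd1a and at 10.06 or less on the other 4.

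Bcl2l11 stood highest in double-KO cells on each of its 4 measured probe sets by group mean. Its product Bim binds every guardian and can activate the effectors directly. Probe set 1456005_a_at read 10.23 and 9.32 in double-KO cells, 8.40 and 8.31 in Jmjd1a-KO cells, 8.06 and 8.19 in Jmjd1b-KO cells, and 7.86 and 7.98 in WT cells. Both double-KO arrays lay above the other 6, and the first lay well above the second. Probe set 1435448_at read 10.52 and 9.64 in double-KO cells, 8.74 and 9.11 in Jmjd1a-KO cells, 8.43 and 8.54 in Jmjd1b-KO cells, and 8.39 and 8.42 in WT cells. The order of the groups was the same, with both Jmjd1a-KO arrays above the Jmjd1b-KO and WT arrays. Probe set 1435449_at read 8.68 and 8.14 in double-KO cells, 7.63 and 7.63 in Jmjd1a-KO cells, 7.70 and 7.51 in Jmjd1b-KO cells, and 7.36 and 7.53 in WT cells. Here too the double-KO arrays stood apart from the other 6. Both double-KO arrays lay above both WT arrays on 42% of all tested probe sets, and above both Jmjd1b-KO arrays on 45.8%. They lay above both Jmjd1a-KO arrays on 34%, and the share above all of the other 6 was not counted. The dimmer probe set 1426334_a_at read 7.55 and 7.28 in double-KO cells, 6.83 and 7.19 in Jmjd1a-KO cells, 7.31 and 7.23 in Jmjd1b-KO cells, and 6.86 and 7.09 in WT cells, and its double-KO values overlapped those of Jmjd1b-KO cells. Levels of different probe sets are not comparable with each other.

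Bcl2l11 rose in double-KO against WT cells on 3 of its 4 measured probe sets. The change was 1.85 ± 0.28 on the log2 scale for 1456005_a_at (SE, n = 2 arrays a group; adjusted p = 0.00365, limma), which is 3.62-fold. It was 1.67 ± 0.28 for 1435448_at (adjusted p = 0.00567) and 0.97 ± 0.18 for 1435449_at (adjusted p = 0.00773), and 0.44 ± 0.16 for 1426334_a_at, which missed the threshold (adjusted p = 0.0622). With these, 5 of the 15 member probe sets passed the threshold of 0.05 in double-KO against WT cells, where 46.6% of all 11472 tested probe sets did. A call was thus common in this comparison, and the members were called no more often than the array as a whole. Leaving out any 1 array kept the 3 calls, with the change of 1456005_a_at between 1.40 and 2.31 over all arrays left out in turn, while they were lost when the flat probe sets were added to the fit (adjusted p = 0.0545 to 0.0824). Extraembryonic endoderm markers moved in the same comparison: 4 of the 6 measured were higher and 1 lower.

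Against cells that lack only 1 of the enzymes, the same 3 probe sets were higher in double-KO cells. Relative to Jmjd1b-KO cells, the changes were 1.65 ± 0.28 for 1456005_a_at (adjusted p = 0.00494), 1.59 ± 0.28 for 1435448_at (adjusted p = 0.00596) and 0.81 ± 0.18 for 1435449_at (adjusted p = 0.013; 0.0783 without the second Jmjd1b-KO array). Relative to Jmjd1a-KO cells, they were 1.42 ± 0.28 (adjusted p = 0.0158), 1.15 ± 0.28 (adjusted p = 0.031) and 0.78 ± 0.18 (adjusted p = 0.0253) in the same order. The shares of all tested probe sets called were 50.1% against Jmjd1b-KO and 29% against Jmjd1a-KO cells, where 4 and 3 member probe sets passed. With the flat probe sets in the fit, the 3 Bcl2l11 calls were lost in both comparisons (adjusted p = 0.066 to 0.11 against Jmjd1b-KO cells, limma). The comparison with Jmjd1a-KO cells depended on the estimate of spread: with only its own 4 arrays in the fit, the 3 adjusted p-values were 0.0929, 0.133 and 0.105. Probe set 1435448_at also lost this call without the first Jmjd1a-KO array (0.0992), either WT array (0.061) or either Jmjd1b-KO array (0.0637), and with the replicate block (0.0525) or array weights (0.0629). Probe set 1435449_at lost it with array weights (0.0777) and without either Jmjd1a-KO array (0.0673 and 0.0614) or the first double-KO array (0.0506).

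Neither single knockout passed the test for Bcl2l11 with all 8 arrays. The 4 probe sets were 0.03 to 0.52 higher in Jmjd1a-KO than in WT cells, with adjusted p-values of 0.235 to 0.898, and 1456005_a_at passed without either double-KO array (0.0297). In Jmjd1b-KO against WT cells the differences were 0.08 to 0.29, with adjusted p-values of 0.212 to 0.862. Whether the effect of losing Jmjd1b differed with Jmjd1a absent or present was tested as an interaction, the double-KO minus Jmjd1a-KO change less the Jmjd1b-KO minus WT change. It was 1.22 ± 0.39 for 1456005_a_at (adjusted p = 0.0697), 1.07 ± 0.40 for 1435448_at (adjusted p = 0.0995) and 0.62 ± 0.25 for 1435449_at (adjusted p = 0.122). None passed with all 8 arrays. Without the second double-KO array, all 3 passed, at 1.67, 1.51 and 0.89 (adjusted p = 0.00398, 0.0113 and 0.0186), while without the first they were 0.76, 0.63 and 0.36 and only 1456005_a_at passed (0.0257). The size of the Bcl2l11 interaction thus depended on which double-KO array was kept.

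**Figure D2:**
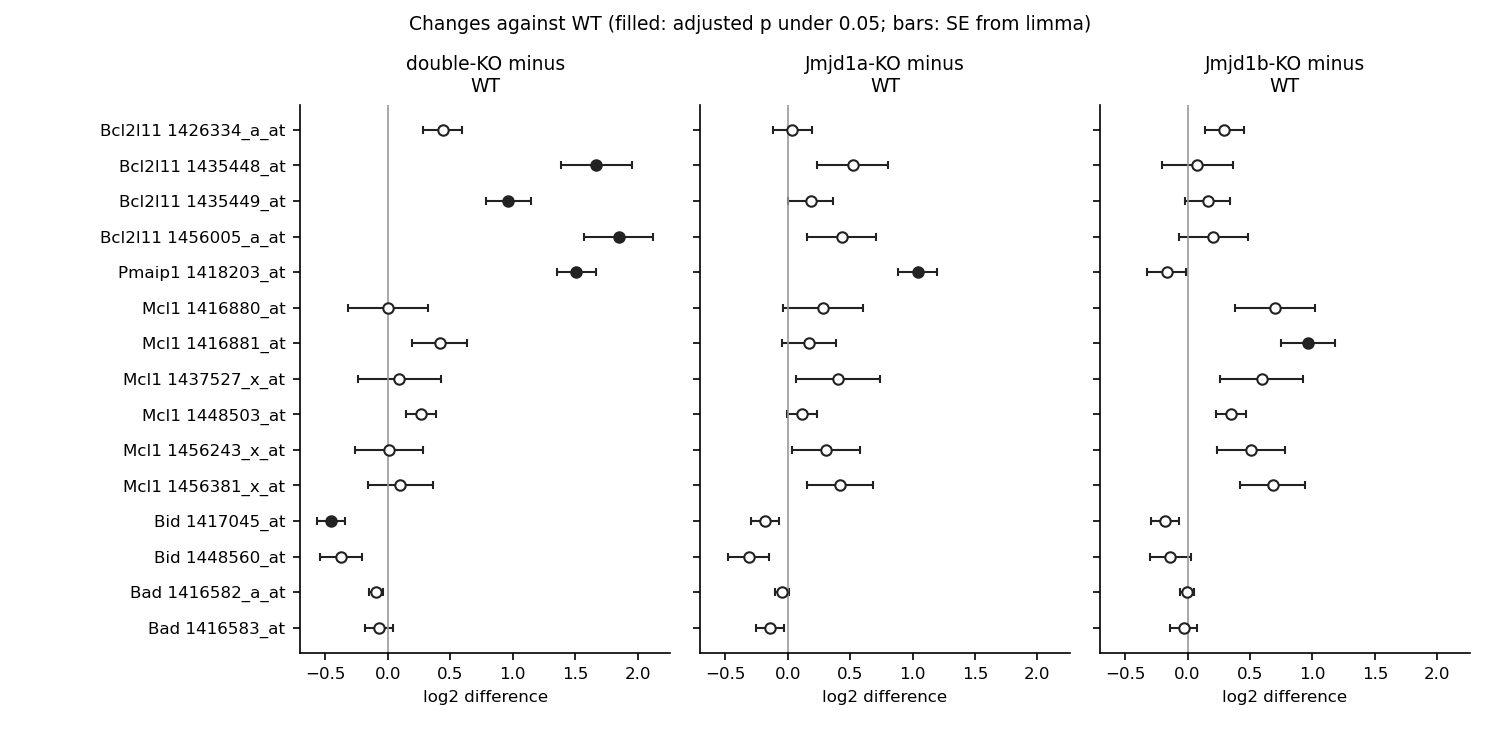
Log2 change against WT (horizontal axis) of each measured member probe set, in double-KO, Jmjd1a-KO and Jmjd1b-KO cells, with bars of 1 SE from the limma fit; filled points passed adjusted p under 0.05. Bcl2l11 is called on 3 probe sets in double-KO cells, Pmaip1 in double-KO and Jmjd1a-KO cells, and 1 Mcl1 probe set in Jmjd1b-KO cells.

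Pmaip1, which encodes Noxa, was high wherever Jmjd1a was absent. Its single probe set 1418203_at read 11.28 and 11.72 in double-KO cells, 11.03 and 11.04 in Jmjd1a-KO cells, 9.93 and 9.72 in Jmjd1b-KO cells, and 10.06 and 9.92 in WT cells. All 4 arrays without Jmjd1a lay above all 4 with it, both double-KO arrays lay above both Jmjd1a-KO arrays, and Jmjd1b-KO and WT arrays overlapped. Of all tested probe sets, 34.1% had both Jmjd1a-KO arrays above both WT arrays and 34.8% had them above both Jmjd1b-KO arrays. The share with all 4 arrays without Jmjd1a above all 4 with it was not counted. Pmaip1 rose in double-KO against WT cells by 1.51 ± 0.15 on the log2 scale, 2.84-fold (adjusted p = 0.0011, limma), and in Jmjd1a-KO against WT cells by 1.04 ± 0.15, 2.06-fold (adjusted p = 0.0131). It was the only member probe set of 15 called in Jmjd1a-KO against WT cells, where 17.9% of all tested probe sets were called. The call in Jmjd1a-KO cells was lost without either WT array (adjusted p = 0.0655 and 0.0886) and with the flat probe sets in the fit (0.113), whereas in double-KO cells it held in every alternative run (adjusted p up to 0.0234).

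In Jmjd1b-KO against WT cells Pmaip1 had a change of -0.17 ± 0.15 on the log2 scale, which missed the threshold (adjusted p = 0.457). Against Jmjd1b-KO cells, Pmaip1 was higher by 1.68 ± 0.15 in double-KO cells (adjusted p = 0.000703) and by 1.21 ± 0.15 in Jmjd1a-KO cells (adjusted p = 0.00477). The difference between double-KO and Jmjd1a-KO cells was 0.46 ± 0.15 and missed the threshold (adjusted p = 0.0717), although the arrays did not overlap, as was so, in this direction, for 34% of all tested probe sets. It passed without the first double-KO array, at 0.68 (adjusted p = 0.0259). The interaction was 0.63 ± 0.22 (adjusted p = 0.0823), and it passed without the same array, at 0.85 (adjusted p = 0.0287). Bcl2l11 and Pmaip1 thus differed in their order: the arrays of Jmjd1a-KO cells stood close to the double-KO arrays for Pmaip1 and close to the WT arrays for Bcl2l11 1456005_a_at, with group means of 11.50, 11.04, 9.82 and 9.99 for Pmaip1 and 9.77, 8.35, 8.13 and 7.92 for Bcl2l11 in double-KO, Jmjd1a-KO, Jmjd1b-KO and WT cells. That difference in pattern between the genes was not tested.

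**Figure D3:**
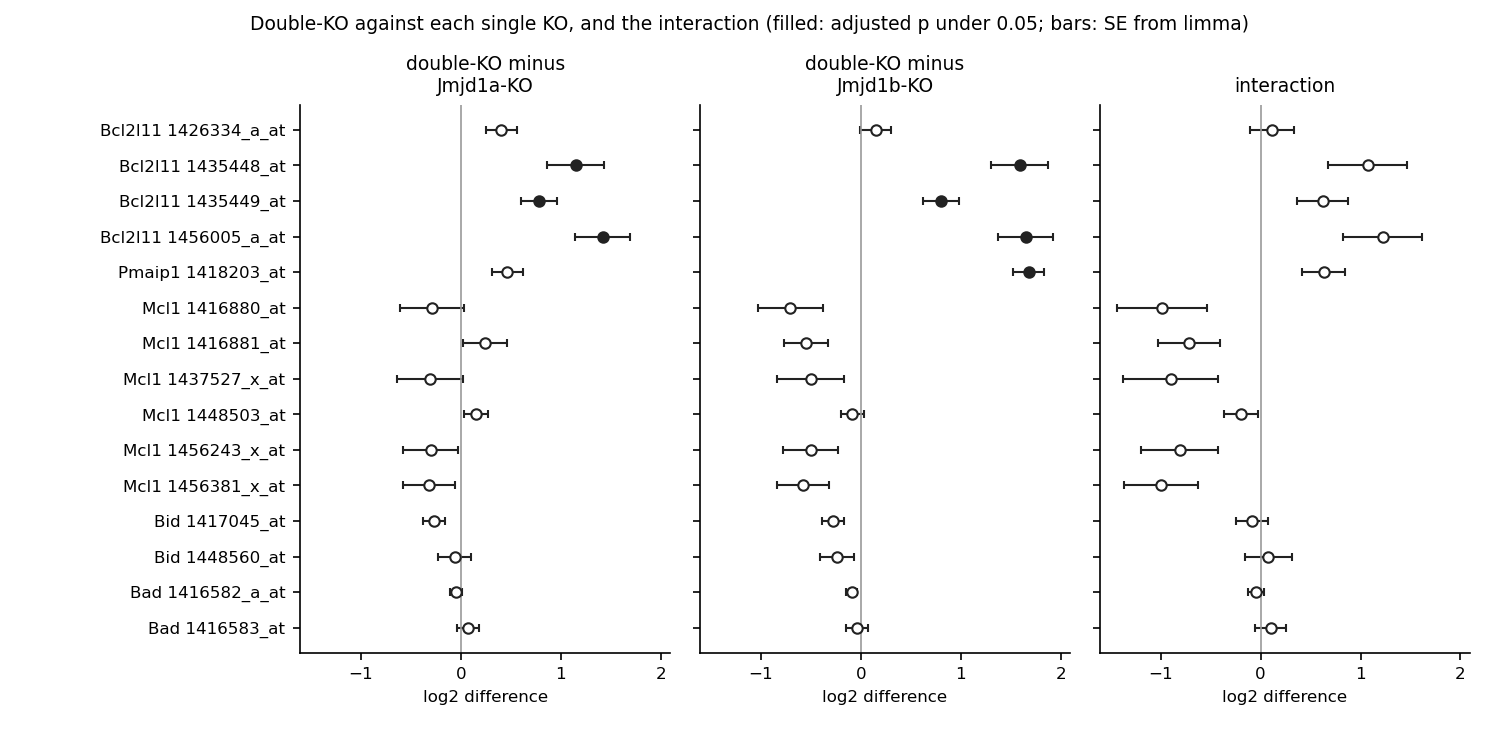
Log2 change (horizontal axis) of each measured member probe set in double-KO cells against Jmjd1a-KO and against Jmjd1b-KO cells, and the interaction, with bars of 1 SE from the limma fit; filled points passed adjusted p under 0.05. The same 3 of the 4 Bcl2l11 probe sets are called against both single knockouts, Pmaip1 against Jmjd1b-KO cells, and no member in the interaction.

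Mcl1, the guardian that Noxa binds, had all 6 of its probe sets measured, and on each of them both Jmjd1b-KO arrays lay above both WT arrays, as did 39.5% of all tested probe sets. Probe set 1416881_at read 10.58 and 11.22 in double-KO cells, 10.81 and 10.51 in Jmjd1a-KO cells, 11.46 and 11.44 in Jmjd1b-KO cells, and 10.39 and 10.58 in WT cells. The Jmjd1b-KO arrays were the highest of the 8, and the other groups overlapped. Probe set 1448503_at read 12.18 and 12.48 in double-KO cells, 12.29 and 12.07 in Jmjd1a-KO cells, 12.44 and 12.39 in Jmjd1b-KO cells, and 12.08 and 12.05 in WT cells. Here the second double-KO array was the highest of the 8. Probe set 1416880_at read 10.96 and 11.80 in double-KO cells, 12.01 and 11.33 in Jmjd1a-KO cells, 12.07 and 12.09 in Jmjd1b-KO cells, and 11.34 and 11.42 in WT cells. The first array was the lower of the pair in double-KO cells and the higher in Jmjd1a-KO cells. All 6 probe sets shared this: the first array minus the second was -0.85 to -0.30 in double-KO cells and 0.22 to 0.81 in Jmjd1a-KO cells, against -0.08 to 0.09 in Jmjd1b-KO cells and -0.20 to 0.10 in WT cells. In bulk RNA, fewer cells of a type and less RNA per cell cannot be told apart.

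Mcl1 rose in Jmjd1b-KO against WT cells on 1 of its 6 probe sets, 1416881_at, by 0.96 ± 0.22 on the log2 scale (adjusted p = 0.0309, limma), 1.95-fold. The other 5 were 0.35 to 0.70 above WT and missed the threshold (adjusted p = 0.0818 to 0.236). Probe set 1416881_at was the only member probe set of 15 called in this comparison, where 23.9% of all tested probe sets were called. The result depended on how the spread was estimated, in both directions. With array weights all 6 Mcl1 probe sets passed (adjusted p of 0.00289 to 0.0392), and all 6 also passed with only the 4 arrays of these groups in the fit. Probe set 1416881_at lost its call with the flat probe sets in the fit (0.192) and without any 1 of the 4 arrays. Over the alternatives its change stayed between 0.87 and 1.06. Beside this, 8 of the 11 measured fibroblast markers were lower and 1 higher in Jmjd1b-KO than in WT cells.

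In the other genotypes Mcl1 gave no call against WT with all 8 arrays. The changes were between -0.00 and 0.41 in double-KO cells (adjusted p = 0.116 to 0.997) and between 0.11 and 0.42 in Jmjd1a-KO cells (adjusted p = 0.291 to 0.609). Without the first double-KO array, 1416881_at and 1448503_at passed in double-KO cells, at 0.74 and 0.42 (adjusted p = 0.0214 and 0.039). Relative to Jmjd1b-KO cells, Mcl1 1416881_at was lower in Jmjd1a-KO cells, a change of -0.79 ± 0.22 (adjusted p = 0.0442), and with Pmaip1 it made 2 called member probe sets of 15, where 27.9% of all were called. That call was lost after quantile normalization (0.0503), with the replicate number as a block (0.0622) and without any 1 of the 6 arrays other than the double-KO arrays (0.0579 to 0.17). In double-KO against Jmjd1b-KO cells the 6 changes were -0.70 to -0.08 (adjusted p = 0.0832 to 0.603), and 3 passed without the second double-KO array (0.0112 to 0.0293). On 5 of them both double-KO arrays lay below both Jmjd1b-KO arrays, as did 36.2% of all tested probe sets. The interaction was negative on all 6, at -0.999 to -0.20 (adjusted p = 0.0966 to 0.422), and none passed with all 8 arrays, while 3 did without the second double-KO array (0.0227 to 0.0454) and 2 without the second Jmjd1a-KO array (0.0458 and 0.0457).

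**Figure D4:**
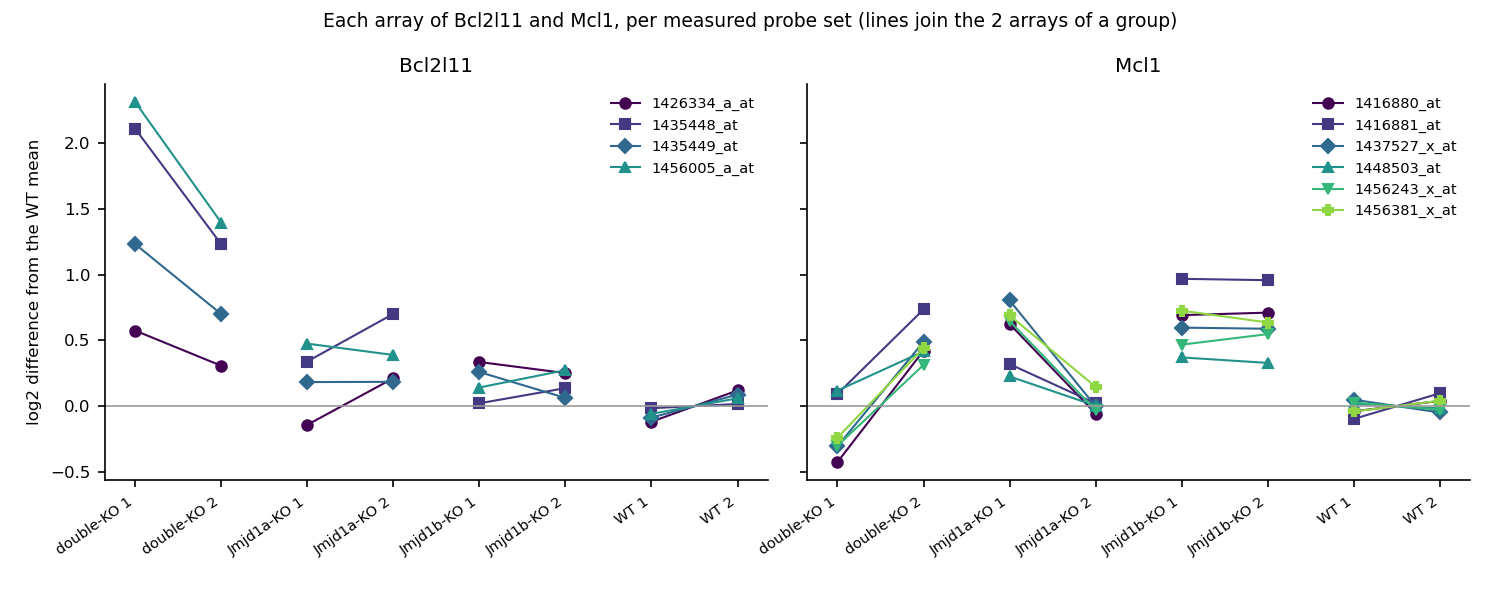
Difference of each array from the WT mean (vertical axis, log2) for the 4 measured Bcl2l11 and 6 Mcl1 probe sets, with the 8 arrays along the horizontal axis and lines joining the 2 arrays of a group. The first double-KO array is the highest of the 8 on every Bcl2l11 probe set and lies below the second on every Mcl1 probe set, and Mcl1 lies above the WT arrays on both Jmjd1b-KO arrays.

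Bid encodes the protein that caspase 8 cleaves to carry a death receptor signal to mitochondria. Probe set 1417045_at read 8.85 and 9.02 in double-KO cells, 9.11 and 9.30 in Jmjd1a-KO cells, 9.11 and 9.30 in Jmjd1b-KO cells, and 9.32 and 9.46 in WT cells. Both double-KO arrays were the lowest and both WT arrays the highest, and on 36.4% of all tested probe sets the double-KO arrays lay below the WT arrays. Bid fell by 0.46 ± 0.11 on the log2 scale in double-KO against WT cells for this probe set (adjusted p = 0.0199, limma), the only member probe set called lower there, and its level was 0.729 of that in WT cells. Leaving out either WT array (adjusted p = 0.053 and 0.105) or the first double-KO array (0.0873) ended the call, as did adding the flat probe sets (0.128). The second probe set, 1448560_at, read 7.66 and 7.65 in double-KO cells, 7.47 and 7.97 in Jmjd1a-KO cells, 7.95 and 7.83 in Jmjd1b-KO cells, and 7.95 and 8.11 in WT cells. Its double-KO arrays also lay below the WT arrays, with a change of -0.38 ± 0.17 that missed the threshold (adjusted p = 0.114) and passed without either Jmjd1a-KO array (0.014). Against WT, the single knockouts gave changes of -0.19 and -0.31 in Jmjd1a-KO cells and -0.18 and -0.14 in Jmjd1b-KO cells for the probe sets in that order. None passed with all 8 arrays, and 1448560_at passed in Jmjd1a-KO cells without the second Jmjd1a-KO array, at -0.57 (adjusted p = 0.0156).

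Bad encodes a BH3-only protein that growth factor signals hold inactive by phosphorylation. Probe set 1416582_a_at read 8.61 and 8.63 in double-KO cells, 8.71 and 8.62 in Jmjd1a-KO cells, 8.70 and 8.72 in Jmjd1b-KO cells, and 8.74 and 8.69 in WT cells. Probe set 1416583_at read 8.36 and 8.09 in double-KO cells, 8.06 and 8.25 in Jmjd1a-KO cells, 8.29 and 8.24 in Jmjd1b-KO cells, and 8.25 and 8.35 in WT cells. The groups lay close together on both, and neither probe set was called in any comparison. The changes against WT were -0.10 ± 0.06 and -0.07 ± 0.11 in double-KO cells (adjusted p = 0.206 and 0.634). They were -0.05 and -0.14 in Jmjd1a-KO cells and -0.01 and -0.03 in Jmjd1b-KO cells.

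Over the 15 measured member probe sets, 4 were higher and 1 lower in double-KO against WT cells, for 3 genes, where 27% of all tested probe sets were higher and 19.6% lower. The members' median change was 0.10, and that of all tested probe sets was 0.02. Calls of the whole array were 10.1% higher and 7.88% lower in Jmjd1a-KO against WT cells (1 and 0 of the members), and 12.3% and 11.6% in Jmjd1b-KO against WT cells (also 1 and 0). They were 17% higher and 11.9% lower in double-KO against Jmjd1a-KO cells (3 and 0 of the members), and 28.3% and 21.8% in double-KO against Jmjd1b-KO cells (4 and 0). In Jmjd1a-KO against Jmjd1b-KO cells they were 15.1% and 12.7% (1 and 1 of the members). In each of the 6 pairwise comparisons the share of members called was below that of all tested probe sets. The median was 0.18 in Jmjd1a-KO against WT cells and 0.21 in Jmjd1b-KO against WT cells, where that of all probe sets was 0.00 in both. It was 0.07 in double-KO against Jmjd1a-KO cells (0.02 for all) and -0.09 in double-KO against Jmjd1b-KO cells (0.04 for all). With 6 of the 15 probe sets for Mcl1, these medians weigh that gene most. In the interaction, limma called 0 of the 15, against 24.9% of all tested probe sets (13.9% higher and 11% lower), and 4 had an unadjusted p under 0.05. The comparisons against WT share the WT arrays, and those of double-KO cells share the double-KO arrays.

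Probe sets of 1 gene ran together to different degrees over the 8 arrays. Pearson's r was 0.71 to 0.99 over the 15 pairs of Mcl1 probe sets and 0.68 to 0.98 over the 6 pairs of Bcl2l11 probe sets. It was 0.72 for the pair of Bid and -0.14 for the pair of Bad, whose arrays hardly differ. These are descriptions over arrays that share genotype and line.

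The genes most like Bcl2l11 and Pmaip1 over the 8 arrays were taken from 1935 genes whose group means ranged over at least 1 on the log2 scale. For Bcl2l11 1456005_a_at they were Camsap3 (r = 0.988), Dync1i1 (0.984) and Cttnbp2 (0.983). Camsap3 encodes a protein that binds microtubule minus ends, and Dync1i1 an intermediate chain of the dynein motor. For Bcl2l11 1435448_at they were Cast (0.991), which encodes the calpain inhibitor calpastatin, Lrrc6 (0.984) and Ghr (0.981), which encodes the growth hormone receptor. For Pmaip1 they were Zfp934 (0.993), Zfp42 (0.987) and H2ax (0.986). Zfp42, an ES cell marker also known as Rex1, had group means of 13.22 in double-KO cells, 12.90 and 11.47 in the Jmjd1a-KO and Jmjd1b-KO cells, and 11.89 in WT cells, and H2ax encodes the histone that is phosphorylated at DNA breaks. The 8 arrays fall into 4 groups of lines, so these values describe likeness over few independent points.

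Other genes of the pathway were followed in 6 lists, with 1 probe set per gene. For double-KO against WT cells, 46.6% of all tested probe sets were called, and the genes named for that comparison, other than Bnip3 and Foxo3, were chosen among those called with arrays that do not overlap. Of 15 other Bcl2 family genes 5 were measured, and in double-KO against WT cells 1 was higher, 1 lower and the median change was -0.01. Bmf, another BH3-only gene, read 8.55 and 8.72 in double-KO cells, against 7.84 and 7.76 in WT cells, and rose by 0.84 ± 0.19 (adjusted p = 0.0143, limma). Bok, a relative of the effectors, fell by 0.24 ± 0.06 (adjusted p = 0.0225). Its change was -0.22 ± 0.06 in Jmjd1a-KO and in Jmjd1b-KO cells, which missed the threshold (adjusted p = 0.0565 and 0.0508). Bnip3, a mitochondrial gene induced by low oxygen, was 1.13 ± 0.48 above WT and missed the threshold (adjusted p = 0.101), and its Jmjd1a-KO arrays read 12.94 and 11.44.

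Of 12 genes of mitochondrial release and the apoptosome 8 were measured, with 1 higher and 2 lower in double-KO against WT cells and a median change of -0.13. Aifm1, a mitochondrial protein that supports respiration and can promote cell death once released, read 9.72 and 9.75 in double-KO cells, 10.76 and 10.47 in Jmjd1a-KO cells, 10.71 and 10.70 in Jmjd1b-KO cells, and 10.44 and 10.37 in WT cells. The double-KO arrays were the lowest of the 8, and on 36.4% of all tested probe sets they lay below both WT arrays. Aifm1 fell by 0.67 ± 0.10 (adjusted p = 0.00377), and Cycs, the gene of cytochrome c, fell by 0.26 ± 0.07 (adjusted p = 0.024). Vdac1, a channel of the outer membrane, rose by 0.30 ± 0.07 (adjusted p = 0.0194). In Jmjd1a-KO against WT cells 2 genes of this list were higher, Vdac1 and the apoptosome gene Apaf1 (17.9% of all tested probe sets were called), and in Jmjd1b-KO against WT cells 1 was lower, the protease gene Htra2 (23.9% of all).

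Caspases and their inhibitors were sparsely measured. Of 8 caspase-list genes 3 were measured, and Casp6 rose in double-KO against WT cells by 0.49 ± 0.10 (adjusted p = 0.0122) as the only call, with a list median of 0.02. Of 5 inhibitor of apoptosis genes 3 were measured, with a median of 0.19 and Birc6 as the only call. Birc6 read 9.22 and 9.02 in double-KO cells, 10.02 and 10.05 in Jmjd1a-KO cells, 9.01 and 8.90 in Jmjd1b-KO cells, and 9.70 and 9.38 in WT cells. Both genotypes without Jmjd1b lay below WT and Jmjd1a-KO lay above it, and the change was -0.42 ± 0.12 in double-KO cells (adjusted p = 0.0336). Of 10 death receptor genes 2 were measured. Tradd, an adaptor of the TNF receptor, read 8.21 and 8.33 in double-KO cells, against 7.35 and 7.51 in WT cells, and rose by 0.84 ± 0.09 (adjusted p = 0.00107). Both single knockouts were also above WT, by 0.41 ± 0.09 in Jmjd1a-KO cells (adjusted p = 0.0294, limma) and 0.50 ± 0.09 in Jmjd1b-KO cells (adjusted p = 0.0153). Ripk1 was not analysed here.

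Of 18 genes that regulate the members 14 were measured, and in double-KO against WT cells 2 were higher and 4 lower, where 27% and 19.6% of all tested probe sets were, with a median of -0.15. Pim2, a survival kinase that phosphorylates Bad, read 8.68 and 8.13 in double-KO cells, 7.96 and 9.42 in Jmjd1a-KO cells, 9.89 and 10.08 in Jmjd1b-KO cells, and 11.01 and 11.03 in WT cells. All 6 knockout arrays lay below both WT arrays, and on 36.4% of all tested probe sets the double-KO arrays did. The share on which all 6 did was not counted. Pim2 fell by 2.61 ± 0.46 in double-KO against WT cells (adjusted p = 0.00652, limma). The change was -2.33 ± 0.46 in Jmjd1a-KO cells (adjusted p = 0.0254). In Jmjd1b-KO cells it was -1.03 ± 0.46 and missed the threshold (adjusted p = 0.151). Atf4, a transcription factor of the integrated stress response that can activate Pmaip1, fell by 1.35 ± 0.17 (adjusted p = 0.00208), and the stress gene Trib3 fell by 1.25 ± 0.17 (adjusted p = 0.00277). Usp9x, which removes ubiquitin from Mcl1 protein, rose by 0.61 ± 0.14 (adjusted p = 0.0169). Foxo3, a factor that can activate Bcl2l11, was 0.44 ± 0.22 above WT in double-KO cells and missed the threshold (adjusted p = 0.149), and rose in Jmjd1a-KO cells by 0.90 ± 0.22 (adjusted p = 0.0421). Trp53 was not analysed here.

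**Figure D5:**
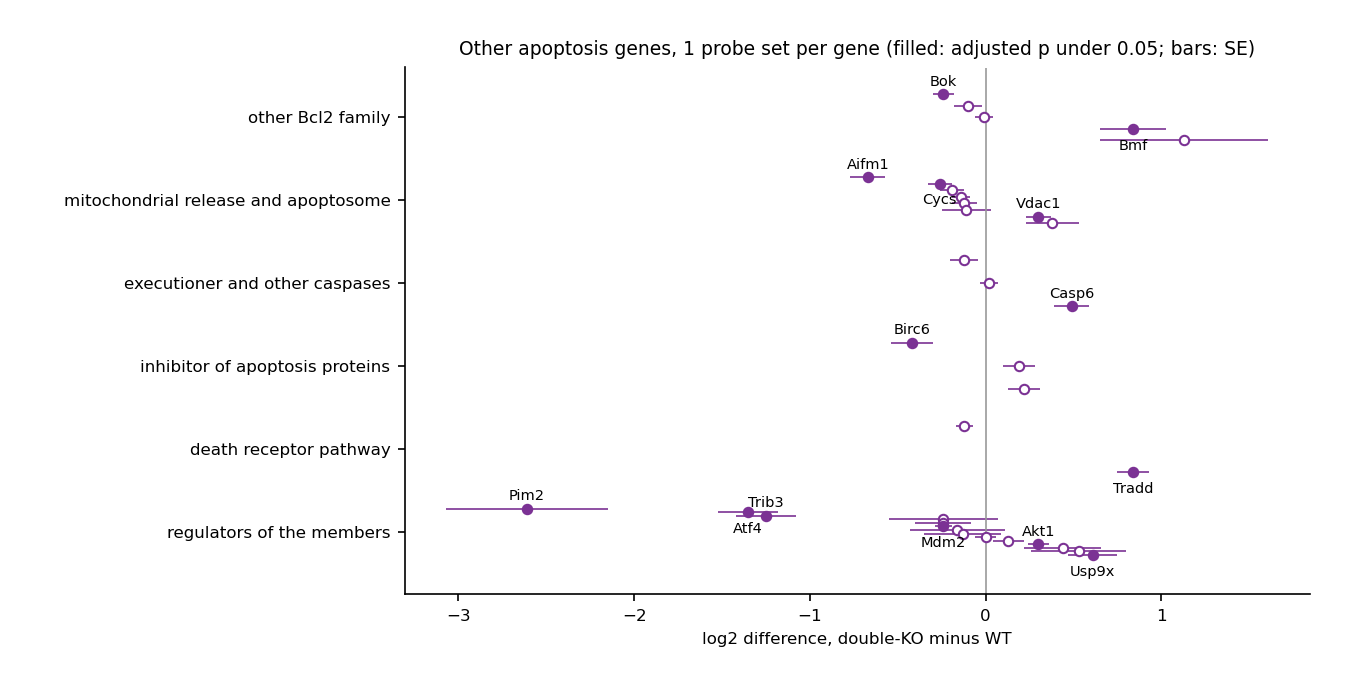
Log2 change in double-KO against WT cells (horizontal axis) of the measured genes of the 6 other lists, 1 point per gene, with bars of 1 SE; filled points passed adjusted p under 0.05 and carry the gene's name. Pim2, Atf4 and Trib3 lie farthest to the left at -2.61, -1.35 and -1.25, and Bmf and Tradd, both at 0.84, are the called genes farthest to the right.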

How the data were processed

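RNA of 8 ES cell samples was measured on 1 Affymetrix array each. The deposited table holds log2 values for 45101 probe sets, a unit read from the values. Per the submitters' processing notes R 2.7.2 was used, while how the arrays were background-corrected, normalized and summarized was not given in the sources used here. Precision is set by the number of arrays, and neither scans nor background signals were used.

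Probe sets were named through the array's gene table: 34958 had 1 symbol, 932 several and 9211 none, and 34754 of the first matched the RefSeq gene table, with 0 symbols updated. The 64 controls were left out. Other probe sets whose 8 values spanned less than 0.01 (33565) were left out too, since the deposited values hold no difference for them. On the other 11472, 4 group means were fitted with limma 3.58.1 in R 4.3.3 (lmFit, then eBayes with the default prior; 4 residual degrees of freedom, no block), and p-values were adjusted by Benjamini-Hochberg over all 11472 per comparison, with a threshold of 0.05. The 4 groups share 1 estimate of spread. The members and lists were chosen with earlier results of these data known. All member probe sets are named. From each other list, the text names up to 4 genes called in double-KO against WT cells whose arrays do not overlap, with the largest changes, and as likest genes the 3 with the highest Pearson r for each of 3 member probe sets. Bnip3, Foxo3, Trp53, Ripk1, Apaf1 and Htra2 were named outside this rule, after the values were seen. The replicate numbers of the labels were not taken as pairs: deviations of arrays with the same number correlated between -0.04 and 0.24. The highest value was that of Jmjd1a-KO with WT cells, and such values cannot show that no arrays were paired. On data simulated for double-KO against WT cells over 11472 probe sets, the fit recovered 41.4%, 80.7% and 95.2% of log2 changes of 0.5, 1 and 2, and 4.3% of its calls were false. Each simulated run changed 200 probe sets and gave all groups the same spread. In the data 46.6% of probe sets were called in this comparison and the groups differed in spread. The 4.3% is therefore not the error rate of the calls reported here. Alternatives were another set of tested probe sets, a filter on low values, quantile normalization, centring, robust eBayes with a trend, array weights, only the groups compared, a replicate block and each array left out in turn.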

Additional observations from a re-analysis of the deposited data

How the results depend on the processing

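With 2 arrays a group, the counts of called member probe sets moved with the estimate of spread. Of 1805 single results under the alternatives, 1712 kept their call or their lack of one, 46 lost the call and 47 gained it. The sign of a called change reversed in 0 of them. Some changes that were not called did differ in sign between alternatives. That of Mcl1 1416880_at in double-KO against WT ran from -0.43 to 0.42. With flat probe sets in the fit, the counts were 1 in double-KO against WT (5 otherwise), 0 in Jmjd1a-KO against WT (1), 0 in Jmjd1b-KO against WT (1), 0 in double-KO against Jmjd1a-KO (3), 1 in double-KO against Jmjd1b-KO (4) and 0 in Jmjd1a-KO against Jmjd1b-KO (2); more probe sets are tested there, and the prior variance falls to near 0. With 1 probe set per gene, fewer members enter, and the counts were 3, 0 for Jmjd1b-KO against WT, 1, 2 and 1 in the comparisons that moved. Array weights gave 6 in Jmjd1b-KO against WT, 1 in double-KO against Jmjd1a-KO and 7 in double-KO against Jmjd1b-KO. When the fit held only the arrays of the 2 groups, these counts were 6 in Jmjd1b-KO against WT and 0 in double-KO against Jmjd1a-KO. In Jmjd1a-KO against Jmjd1b-KO, quantile normalization gave 1 and the replicate block 1. The replicate block, for numbers not taken as pairs, gave 5, 1 and 1 calls in double-KO, Jmjd1a-KO and Jmjd1b-KO against WT. It gave 3 and 5 in double-KO against Jmjd1a-KO and Jmjd1b-KO, 1 in Jmjd1a-KO against Jmjd1b-KO, and 0 in the interaction. In double-KO against Jmjd1a-KO, the block lost Bcl2l11 1435448_at (adjusted p = 0.0525) and gained Bid 1417045_at (0.0265).

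Leaving out 1 array gave 4 to 7 calls in double-KO against WT, 0 to 2 in Jmjd1a-KO against WT, 0 to 2 in Jmjd1b-KO against WT, 1 to 3 and 3 to 7 in double-KO against Jmjd1a-KO and Jmjd1b-KO, 1 to 2 in Jmjd1a-KO against Jmjd1b-KO, and 0 to 6 in the interaction, the most without the second double-KO array; the lone array of a group is then assumed to vary like the other groups. Over all probe sets, calls in Jmjd1a-KO against WT ran between 186 and 3686 with 1 array left out (2057 with all) and were 405 with only these groups. In Jmjd1b-KO against WT they were 2745, 5529 with array weights and 5071 with only these groups, and 106 without the second Jmjd1b-KO array. Double-KO against Jmjd1a-KO had 3322, and 550 with only these groups. Centring each array moved the share of higher calls to 43.3% in double-KO against WT (57.9% as deposited), 45.1% in Jmjd1a-KO against WT (56.1%) and 46% in double-KO against Jmjd1a-KO (58.9%). The cause of these moves, beyond the number of probe sets or arrays, was not tested.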
